A study of Mus musculus with 6 samples.

Results

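The genes described here encode the nuclear subunits of the 5 complexes of oxidative phosphorylation, complexes I to V, with the assembly factors that share their symbols. Members were chosen by symbol alone: every probe set with 1 gene symbol that starts with Ndufa, Ndufb, Ndufc, Ndufs, Ndufv, Uqcr, Cox4 to Cox8, Atp5 or Sdha to Sdhd, except Cox7c. The rule found 183 probe sets of 93 genes. Each gene was represented by its probe set of highest mean over the 6 arrays. Of the 93 genes, 87 passed the filter on dim probe sets and stand among the 14678 genes tested in all. Assigned by symbol prefix, complex I had 44 members (43 tested), complex II 8, complex III 8, complex IV 16 (11 tested) and complex V 17. The prefixes also caught 12 assembly factors, 8 of complex I (Ndufaf genes) and 4 of complex II (Sdhaf genes), which help to build a complex without staying in it. Another 10 probe sets with several symbols were left out.

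Total RNA from hippocampal cells of mice described as HuD overexpressors, and of controls, was measured on 6 expression arrays. HuD, the product of Elavl4, is a neuronal protein that binds mRNAs. The labels call the cells DGCs, taken here as granule cells of the dentate gyrus, its main neurons. They give 2 control and 2 transgenic mice, with 1 array of mouse 1 and 2 arrays of mouse 2 in each group. The 3 control arrays carry no transgene by their labels, and the 3 transgenic arrays carry the HuD transgene. Strain, age, the promoter of the transgene and any treatment beyond tissue preservation are not stated in the labels. Array numbers 1 and 2 within mouse 2 follow accession order and pair nothing between groups. The descriptions assign 2 arrays to control mouse 2, but their titles read control 1 and control 2, and the descriptions were followed. The word re-LCM, which the labels do not explain, stands in 3 titles: both mouse 1 arrays and array 1 of transgenic mouse 2.

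The deposited intensities were scaled so that each array has a 2% trimmed mean of 150.001. Elavl4 was not higher on the arrays labelled transgenic: its brightest probe set read 122, 92.8 and 63.7 in controls against 79.4, 93.3 and 60.1 in transgenics. The log2 difference was -0.33 (95% interval -1.03 to 0.37, adjusted p = 0.999). Transgenic therefore means labelled transgenic throughout, and whether these probes reach the transgene's transcript is not known here. The granule cell genes Dsp (6366 to 9391 over 6 arrays), Prox1 (497 to 651) and Tdo2 (230 to 405) were well above the floor of 10.1 on every array.

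Oxidative phosphorylation passes electrons from NADH (at complex I) and from succinate (at complex II) through ubiquinone to complex III, cytochrome c and complex IV, where oxygen is reduced. Complexes I, III and IV pump protons across the inner mitochondrial membrane, and complex V, the ATP synthase, makes ATP as they flow back. Neurons depend on it for the ion pumping that follows synaptic activity. All complexes but complex II combine subunits encoded in the nucleus with a few encoded in mitochondrial DNA, and the transcription factors NRF1 and GABP (an ETS factor also called NRF2) are known regulators of many of the nuclear genes.

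Promoters were examined because the members moved together between arrays, as described further on. RefSeq promoters (build GRCm38.p6, 250 bases before to 50 after the start of a gene) were found for 77 of the 93 members. The NRF1 letters GCGCNTGCGC, searched on both strands, stood in 19 of the 77 (24.7%), against 11.8% of the 8937 other tested genes with a promoter and 5.19% of all 27025 genes with one. By complex these were 7 of 39 for complex I, 4 of 7 for complex II, 1 of 5 for complex III, 1 of 11 for complex IV and 6 of 15 for complex V. The ETS letters CCGGAAG, also on both strands, stood in 22 of 77 (28.6%), against 19.9% of the other tested genes and 9.93% of all genes with a promoter. Both stood in 5 members. A match to one motif cannot lie wholly within a match to the other, and a match is a description of the letters, not of binding. Shown here, to let a reader see the motif in place, are 60 bases around the match for the subunit of each complex with the brightest probe set among those with a match before the start site. Complex III had none. All 4 genes lie on the minus strand, the bases run 5′ to 3′ on the gene's strand, and capitals mark the NRF1 letters, here on the strand opposite to the motif as spelled.
Ndufa5 (complex I, chr6:24527691-24527750): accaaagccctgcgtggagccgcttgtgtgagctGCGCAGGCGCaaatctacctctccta
Sdha (complex II, chr13:74350241-74350300): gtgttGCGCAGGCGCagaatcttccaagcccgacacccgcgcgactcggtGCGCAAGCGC
Cox6a1 (complex IV, chr5:115349041-115349100): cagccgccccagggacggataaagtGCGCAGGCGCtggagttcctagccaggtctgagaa
Atp5h (complex V, chr11:115420026-115420085): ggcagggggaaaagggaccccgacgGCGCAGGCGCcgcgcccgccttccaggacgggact
RefSeq gives Ndufa5 2 start sites, and its match ended 16 bases before one and 180 bases before the other. The match shown for Cox6a1 ended 107 bases and that of Atp5h 131 bases before the start site. Sdha holds the letters at 2 places in the window, and the second ends directly at the start site.

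No member differed between transgenic and control mice past the threshold. The question was whether overexpression of HuD goes with other levels of the respiratory chain's mRNAs. Differences are log2 of transgenic over control, fitted with limma on 2 against 2 mice, with the 2 arrays of a mouse averaged. Of 14678 genes tested, 0 (0%) passed an adjusted p of 0.05, and 632 (4.31%) had an unadjusted p under 0.05. Of the 87 members tested, 0 had an unadjusted p under 0.05, and the smallest was 0.122 (Ndufb10, adjusted p = 0.999). The members' differences ran from -0.48 to 0.49, with a median of 0.044. They were above 0 for 63 members (72.4%) and below 0 for 24. Over all genes tested the median was 0.0026 and 50.5% were above 0. The differences of members had an SD of 0.14 across genes, against 0.32 over all genes tested. Members were also brighter, with a median log2 intensity of 10.77 against 7.22, and this comparison was not matched for brightness.

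The precision allows bounds. For 82 of the 87 members (94.3%) the 95% interval lay wholly within a 2-fold change either way, and for 60 (69%) within a 1.5-fold change. The same held for 77% and 32% of all genes tested, which were dimmer in general. A change by 1.5-fold or more between these mice thus lay outside the interval of most members, but not of all. Changes smaller than that were in general not resolvable with 2 mice a group. Bulk RNA cannot tell a smaller number of cells of a type from less RNA per cell. The labels do not say that arrays of a mouse come from separate captures, so the spread within a mouse may be technical.

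**Figure D1:**
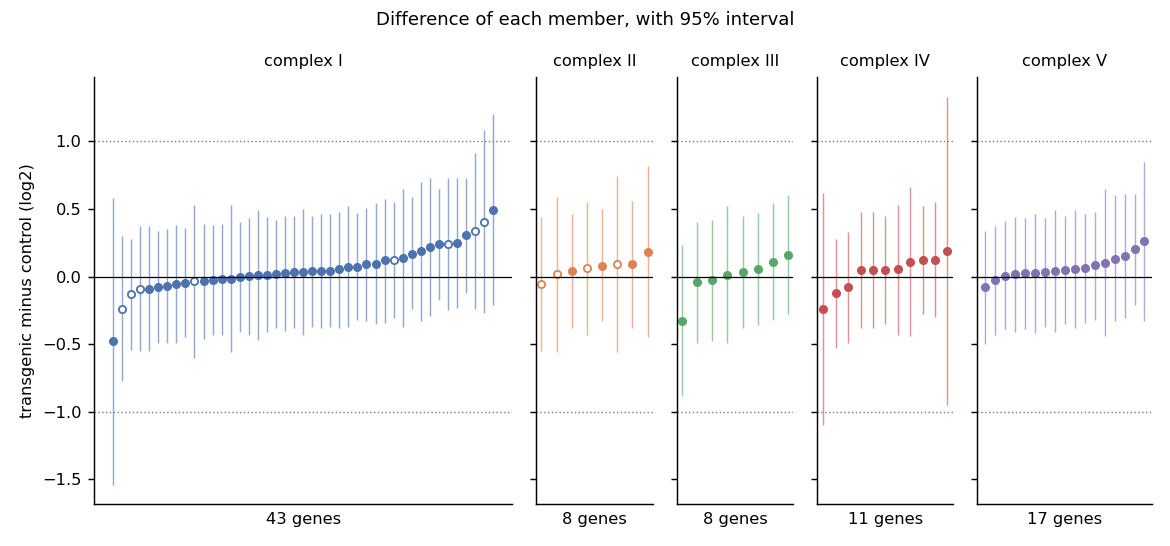
The vertical axis gives the log2 difference, transgenic minus control, of each of the 87 members tested, sorted within its complex, and the vertical lines give the 95% interval of the limma fit on 2 against 2 mice. Open points are assembly factors and dotted lines mark a 2-fold change; the intervals of all 87 members include 0.

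Complex I takes up electrons from NADH. Its differences had a median of 0.036, with 28 of 43 members above 0. Among them were 6 core subunits of the arm that takes electrons from NADH to ubiquinone: Ndufv1, Ndufv2, Ndufs1, Ndufs3, Ndufs7 and Ndufs8. All 6 differences were above 0, from 0.023 (Ndufv1) to 0.22 (Ndufs1), with a median of 0.12. None of the 6 had groups of arrays that were apart. Supernumerary subunits surround and stabilise the core. The 29 tested members counted among them, by symbol and not by structure, had a median of 0.018, with 18 above 0.

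Ndufb10, a supernumerary subunit of the membrane arm, read 1146, 1307 and 1257 in controls (mouse 1, then arrays 1 and 2 of mouse 2) against 1444, 1756 and 1381 in transgenics, an order kept from here on. All 3 transgenic arrays were above all 3 control arrays. Its difference was 0.31 (SE 0.16). It stayed above 0 under each of 21 alternative settings, from 0.11 to 0.47. Ndufb1, another membrane arm subunit, had the largest difference of all members, 0.49 (SE 0.27), at low intensities of 40.6, 68.3 and 51.2 against 79.6, 86.1 and 41.4. Its groups overlapped, since transgenic mouse 2 array 2 read as low as the control arrays. Ndufb4 had the lowest difference, -0.48 (SE 0.40), also at low intensities, 31.1, 49.7 and 31.6 against 17.2, 33.1 and 40.7. Ndufs5 read 335, 354 and 314 against 376, 487 and 354, a difference of 0.24 (SE 0.16), with 1 transgenic array at the level of the highest control array.

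The 8 assembly factors of complex I include 2 more whose groups of arrays were apart. Ndufaf5, which modifies a core subunit during assembly, read 223, 161 and 157 against 234, 234 and 249, a difference of 0.34 (SE 0.22). Ndufaf6, named after its values were seen, read 60.5, 55.4 and 50.6 against 60.8, 61.7 and 88.4, a difference of 0.24 (SE 0.19). Its lowest transgenic array was barely above the highest control array. Ndufaf3 read 144, 238 and 188 against 257, 272 and 157, a difference of 0.40 (SE 0.26) with overlapping groups. In all, 3 of 87 members had every transgenic array above every control array, where 3.86% of all genes tested did, and 1 had every transgenic array below, where 4.22% did. Both directions together made up 4.6% of the members and 8.07% of all genes tested, with no matching for brightness.

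Complex II, succinate dehydrogenase, links the tricarboxylic acid cycle to the chain and is encoded wholly in the nucleus. The differences of its 4 subunits were 0.081 (Sdha, SE 0.16), 0.091 (Sdhb, SE 0.18), 0.18 (Sdhc, SE 0.24) and 0.04 (Sdhd, SE 0.16). Each is smaller than its error. Sdha, the flavoprotein, read 2887, 3043 and 2610 against 3181, 2872 and 2854. Sdhb, the iron-sulphur subunit, read 1974, 1807 and 1444 against 1960, 2253 and 1510. Sdhc, a membrane anchor, read 192, 91.1 and 229 against 219, 174 and 155, so that the 2 arrays of control mouse 2 lay further apart than any control array from any transgenic one. Sdhd, the other anchor, read 273, 305 and 260 against 270, 342 and 264. The 4 assembly factors ran from -0.057 (Sdhaf2) to 0.09 (Sdhaf3, SE 0.25).

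Complex III passes electrons from ubiquinol to cytochrome c. The median over its 8 members was 0.024, with 5 above 0. Uqcr10, a small subunit, was the only tested member with all transgenic arrays below all control arrays. It read 297, 292 and 304 in controls against 203, 282 and 273. Its difference was -0.33 (SE 0.21), and transgenic mouse 1 stood lowest. Another probe set of Uqcr10 had a difference of 0.40, and the mean over its 3 probe sets gave 0.016. Uqcrc1, a core protein, read 612, 568 and 506 against 672, 771 and 485, a difference of 0.16 (SE 0.17). Uqcrfs1, the Rieske iron-sulphur protein, read 809, 694 and 739 against 853, 766 and 816 (0.11, SE 0.16). Uqcrb had intensities of 17953, 21983 and 17027 against 20123, 22729 and 15382 (0.058, SE 0.16). Within both groups Uqcrb was highest on array 1 and lowest on array 2 of mouse 2.

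Complex IV, cytochrome c oxidase, has tissue isoforms of several subunits, which allows a check on the cells. The isoforms known from most tissues were measured well above the floor: Cox4i1 at 5291 to 7344, Cox6a1 at 10928 to 16138, Cox6b1 at 10599 to 14837, Cox7a2 at 7996 to 10742 and Cox8a at 118 to 286. The isoforms known from lung (Cox4i2), heart and skeletal muscle (Cox7a1, Cox8b) and testis (Cox6b2, Cox7b2) stayed under the filter, with no intensity above 44.7 on any array. The muscle form Cox6a2 (46.8 to 86.8) and the testis form Cox8c (40.6 to 165) passed the filter. The sixth member below the filter was Ndufa4l2, at 3.28 to 34.

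Among the isoforms that passed, differences ran from -0.24 (Cox6a2, SE 0.33) to 0.19 (Cox8c, SE 0.43). Those of Cox4i1 and Cox6a1 were 0.05 each (SE 0.15 and 0.17), that of Cox7a2 0.12 (SE 0.15), that of Cox8a 0.11 (SE 0.21) and that of Cox6b1 -0.08 (SE 0.16). Cox5a, a matrix-side subunit, read 9852, 12817 and 9750 against 11687, 14133 and 8846, a difference of 0.12 (SE 0.16). Cox7a2l, a factor that joins complexes III and IV into supercomplexes, read 5581, 6260 and 5743 against 5185, 5632 and 5245 (-0.12, SE 0.16). It stayed below 0 under each of 21 alternatives. The median over the 11 members tested was 0.05, with 8 above 0.

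Cox7c, a small subunit of complex IV that the choice of members leaves out, stood apart from them. Of its 2 probe sets only 1 passed the filter, and its value rests on that one. It read 199, 228 and 191 in controls against 115, 130 and 119 in transgenics, a difference of -0.77 (SE 0.16, unadjusted p = 0.00517, adjusted p = 0.999 by limma). With it the median of complex IV was also 0.05, and that of all members was 0.043.

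Complex V makes ATP with a catalytic head (F1) driven by a membrane part that holds a ring of subunit c. All 5 head genes had small differences above 0, from 0.016 (Atp5b, the beta subunit) to 0.061 (Atp5c1, the gamma subunit). Of the 12 genes of the membrane part and the stalk, 10 were above 0, and the median over all 17 members was 0.05. Subunit c is encoded by 3 genes that give the same mature protein. Atp5g1 read 409, 367 and 370 against 391, 580 and 372 (0.13, SE 0.18). Atp5g2 read 299, 351 and 301 against 444, 495 and 199 (0.26, SE 0.22). Atp5g3 read 8432, 9327 and 7910 against 9364, 8844 and 7228 (0.024, SE 0.17). For Atp5g1 and Atp5g2 the array that stands out is one of transgenic mouse 2, array 1 high for the first and array 2 low for the second. Atp5l read 331, 332 and 297 against 356, 466 and 317 (0.20, SE 0.16), and Atp5o, which joins the stalk to the head, 1286, 1121 and 1084 against 1397, 1444 and 1081 (0.15, SE 0.17).

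**Figure D2:**
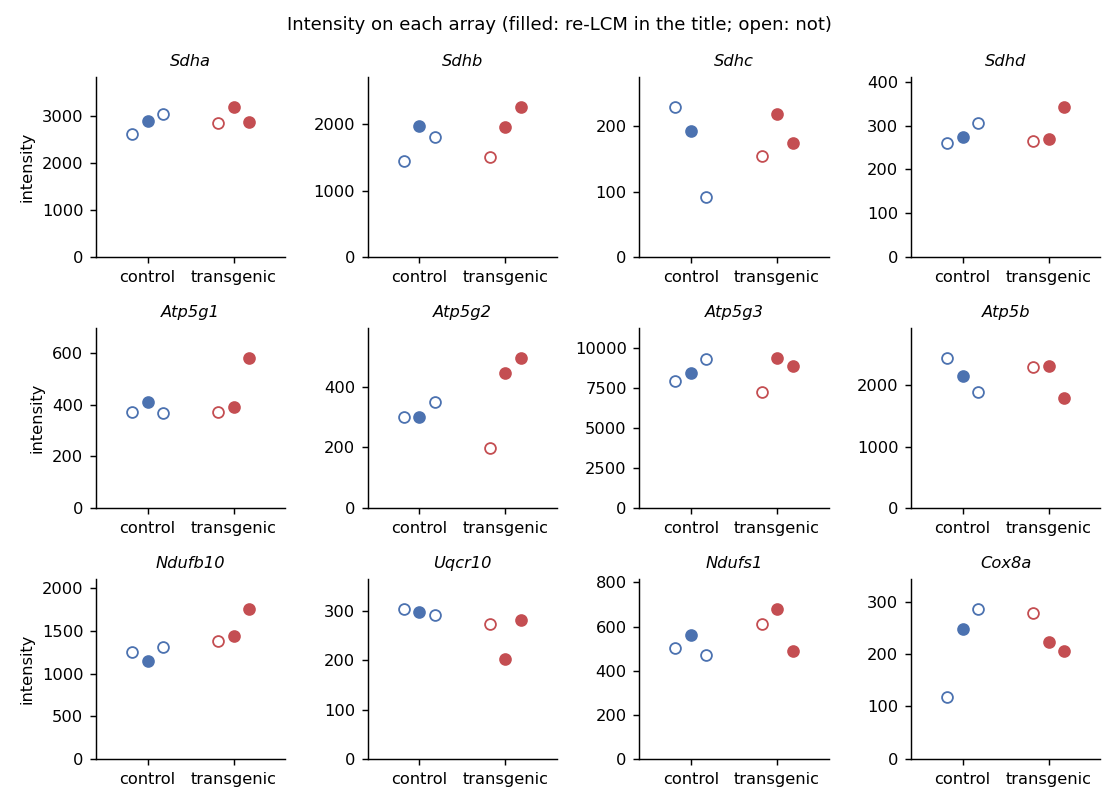
Each panel gives the intensity of 1 gene (linear axis from 0) on the 3 control arrays (blue) and the 3 transgenic arrays (red): in each group the left point is mouse 2 array 2, the middle mouse 1 and the right mouse 2 array 1. Filled points are arrays with re-LCM in the title; the groups overlap in all panels but Ndufb10 and Uqcr10, and Atp5b runs opposite to Sdhb across the arrays of mouse 2.

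The members' mean level differed between the 2 arrays of mouse 2 in each group. The highest and the lowest level belonged to arrays of different groups. The group difference given above (median 0.044) averages over arrays and mice, so it is not measured like a difference between single arrays. The mean level of the 87 members, as log2 relative to each gene's mean over the 6 arrays, was -0.0057 for control mouse 1, 0.077 and -0.17 for arrays 1 and 2 of control mouse 2, 0.0078 for transgenic mouse 1, and 0.21 and -0.13 for arrays 1 and 2 of transgenic mouse 2. The same mean over all genes tested stayed between -0.022 and 0.012. Transgenic mouse 2 array 1 held the highest value of 50 of 87 members (57.5%), against 20% of all genes tested. The lowest value of 33 members (37.9%) was on transgenic mouse 2 array 2 and that of 26 (29.9%) on control mouse 2 array 2, against 15.9% and 15.3% of all genes.

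**Figure D3:**
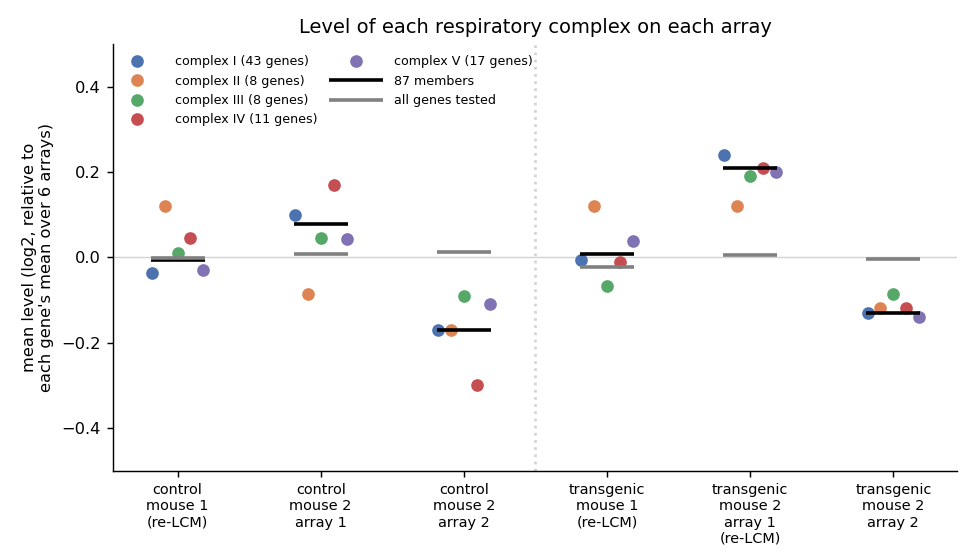
The vertical axis gives the mean log2 level of each complex (coloured points) on each of the 6 arrays, relative to each gene's own mean over the arrays; black bars are the 87 members and grey bars all genes tested. Array 2 of mouse 2 was lowest in both groups, and array 1 of transgenic mouse 2 was highest, while the grey bars stayed near 0.

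Within control mouse 2, array 1 was above array 2 for 74 of 87 members, with a median difference of 0.23 log2. Within transgenic mouse 2 it was above for 71, with a median of 0.39. Over all genes tested these medians were 0.0017 and 0.0086. In both mice together 63 members (72.4%) were higher on array 1, against 30.7% of all genes tested, 5 members were lower on array 1 in both, and 19 differed. Medians in the control and transgenic mouse were 0.29 and 0.46 for complex I, 0.23 and 0.27 for complex II, 0.10 and 0.24 for complex III, 0.33 and 0.42 for complex IV, and 0.16 and 0.38 for complex V. With quantile normalization the difference of the members' mean level fell from 0.24 to 0.18 in the control mouse and from 0.34 to 0.24 in the transgenic mouse.

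The members in the next sentences were picked after their values were seen, for the size of this difference. Ndufv3, a small complex I subunit, read 5237 on array 1 and 3287 on array 2 of control mouse 2, and 5144 and 3091 in transgenic mouse 2, log2 differences of 0.67 and 0.73. Ndufb2 differed by 0.62 and 0.79, Ndufs7 by 0.53 and 0.58, Ndufs8 by 0.51 and 0.66, and Atp5e, the epsilon subunit of the ATP synthase, by 0.50 and 0.69. In the opposite direction stood Atp5b, the catalytic beta subunit, with 1885 and 2444 in the control mouse and 1795 and 2302 in the transgenic mouse (-0.37 and -0.36). Ndufs1, the largest core subunit of complex I, differed by -0.095 and -0.32. Uqcrfs1 (-0.092 and -0.091), Atp5c1 (-0.09 and -0.054) and Ndufa9 (-0.028 and -0.056) made up the rest of that side. Complexes I, III and V thus each held subunits that ran in opposite directions between the same 2 arrays.

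**Figure D4:**
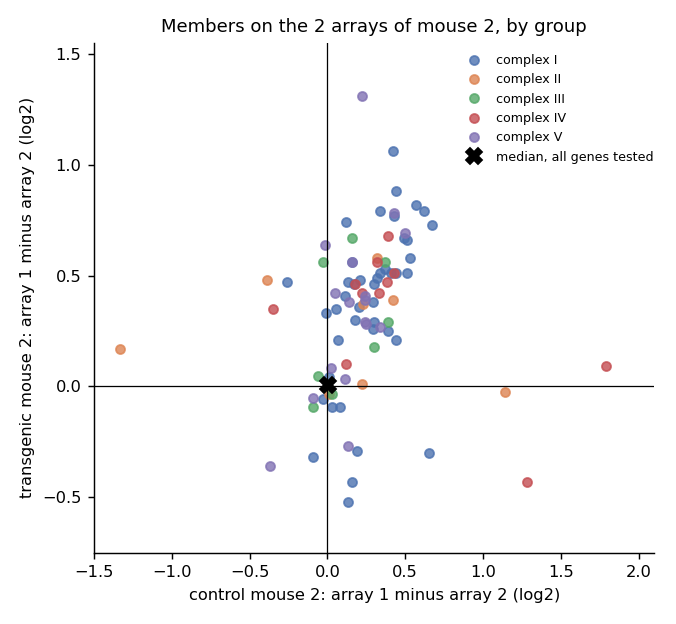
Each point is 1 of the 87 members: the horizontal axis gives array 1 minus array 2 (log2) in control mouse 2 and the vertical axis the same in transgenic mouse 2, and the cross is the median over all genes tested. Most members (63) lie at the upper right, above 0 on both axes, and 5 at the lower left.

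Bright genes in general were higher on array 1, by less than the members. Among the 952 tested genes with a mean log2 intensity above 11, the medians were 0.13 and 0.17, while those of the 41 members in that range were 0.30 and 0.46. Between 9 and 11 the medians of all 2368 genes were -0.0085 and -0.032, and those of 23 members 0.11 and 0.26. The ratio of 3′ to 5′ probe sets of the control transcript Actb, a measure of RNA integrity or of labelling length, was 22.7 on array 1 and 24.2 on array 2 of control mouse 2, and 19.4 and 27.8 in transgenic mouse 2. In mouse 1 it was 17.4 (control) and 14.8 (transgenic). The same ratio of Gapdh ran the other way in control mouse 2, with 8.4 on array 1 and 7.87 on array 2. In transgenic mouse 2 it was 6.46 and 8.63, and in mouse 1 it was 6.92 (control) and 7.06 (transgenic). The part of brightness or of these ratios in the members' difference was not tested. Members with the NRF1 letters in the promoter had medians of 0.22 and 0.39 (19 genes), close to 0.21 and 0.42 for the 54 tested members with a promoter and no such letters.

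Some other gene lists moved between the same arrays, where 30.7% of all genes tested were higher on array 1 in both mice. Mitochondrial ribosomal proteins, which translate the subunits encoded in mitochondrial DNA, were higher on array 1 in both mice for 50 of 76 genes (medians 0.19 and 0.27). For cytosolic ribosomal proteins, with no role in mitochondria, it was 36 of 45 (0.34 and 0.27). It was 10 of 19 for the tricarboxylic acid cycle (0.12 and 0.16) and 11 of 18 for glycolysis (0.22 and 0.18). Some genes with no part in the respiratory chain thus shared the difference, but not all lists did. For regulators of mitochondrial biogenesis it was 7 of 18 (0.015 and 0.12). Among cell type markers it was 1 of 13 for granule cells (-0.033 and -0.11), 1 of 8 for vessels and 4 of 11 for astrocytes. It was 3 of 9 for interneurons, 3 of 7 for pyramidal cells, 5 of 9 for oligodendrocytes and 5 of 8 for microglia.

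The tag in the titles crosses the groups, with 1 of 3 control arrays and 2 of 3 transgenic arrays tagged, and the members' group difference had another sign in each stratum. Among tagged arrays (1 control, 2 transgenic) the median was 0.11, with 67 of 87 members above 0. Among untagged arrays, all of mouse 2 (2 control, 1 transgenic), it was -0.11, with 26 above 0. With the tag as a term over 6 arrays it was 0.011, with 46 above 0. By complex, tagged and untagged medians were 0.14 and -0.16 for complex I, 0.035 and -0.025 for complex II, 0.041 and -0.073 for complex III, 0.17 and -0.24 for complex IV and 0.15 and -0.031 for complex V. The tag itself gave 0 of 14678 genes past the threshold (smallest adjusted p = 0.937 by limma, 754 with an unadjusted p under 0.05). The members' median for tagged over untagged was 0.13, with 75 of 87 above 0. Within the control group tagged minus untagged had a median of -0.012 and within the transgenic group 0.27, where the untagged array is array 2 of mouse 2.

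A single array set the sign of the members' median. Without transgenic mouse 2 array 1 it was -0.052, with 29 of 87 above 0, and without control mouse 2 array 2 it was -0.036, with 33 above 0. Without transgenic mouse 2 array 2 it was 0.14, with 73 above 0, and without control mouse 2 array 1 it was 0.12. The 63 members above 0 thus rest on which arrays of mouse 2 are counted.

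Different probe sets of a gene did not always give the same direction. Of 47 members with at least 2 probe sets past the filter, 18 had differences of both signs, and 7 had probe sets more than 0.5 log2 apart. The widest was Ndufb2, from -1.13 to 0.29, where the brightest probe set gave -0.073. For Sdha the range was -0.54 to 0.081, and for Ndufa3 it was -0.074 to 0.90. For each of these the value given above is that of the brightest probe set.

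Other genes of the pathway were taken from lists chosen for it, and in each list 0 genes passed the adjusted threshold. Factors that assemble complex I (16 listed, 15 tested, of which 8 are members) were above 0 in 8 cases, with a median of 0.075. Those of complexes II to V (28 tested, 4 of them members) were above 0 in 21, with a median of 0.078. Electron carriers and carriers of ATP were above 0 in 12 of 20 (median 0.051). Of these Cyc1, the cytochrome c1 of complex III, read 3774, 5032 and 3357 against 5150, 5234 and 4050 (0.31, SE 0.16). Cycs, cytochrome c, differed by 0.042 (SE 0.15) and Slc25a4, an ADP/ATP carrier, by 0.024 (SE 0.16). Vdac2, a pore of the outer membrane, read 1416, 1335 and 1426 against 1651, 1573 and 1440 (0.17, SE 0.16), with the groups of arrays apart.

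Only 1 gene of mitochondrial DNA was measured by a probe set with a single symbol, ND5, a pump subunit of complex I. It read 4571, 3593 and 2998 in controls against 2851, 3000 and 3008 in transgenics, a difference of -0.40 (SE 0.22), in which control mouse 1 stands highest. Regulators of mitochondrial biogenesis were above 0 in 9 of 18 (median 0.016). Esrra, a nuclear receptor that activates respiratory genes, read 69.7, 69.1 and 97.5 against 107, 97.7 and 97.6 (0.43, SE 0.17). Its groups were apart, by a narrow margin. Tfb1m, a methyltransferase of mitochondrial ribosomal RNA, read 150, 176 and 156 against 105, 143 and 124 (-0.42, SE 0.19), also apart. Nrf1 itself differed by 0.39 (SE 0.18), at intensities of 42.6 to 86.2, and Ppargc1a, the coactivator PGC-1alpha, by 0.15 (SE 0.19). Genes of the tricarboxylic acid cycle were above 0 in 11 of 19 (median 0.04) and those of glycolysis in 11 of 18 (0.084). Idh2, the mitochondrial NADP-dependent isocitrate dehydrogenase, had an unadjusted p of 0.048 (limma, adjusted p = 0.999), with a difference of -0.41 and overlapping groups. Mitochondrial ribosomal proteins were above 0 in 47 of 76 (median 0.064) and cytosolic ones in 17 of 45 (median -0.02).

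Most markers of other cells had differences below 0, opposite to most members. Oligodendrocyte markers were below 0 for 9 of 9 genes tested (median -0.57), with a summed intensity of 4891 to 12303 in controls and 5672 to 8303 in transgenics. Microglia markers were below 0 for 8 of 8 (median -0.35; sums of 3316 to 4636 and 3117 to 3820). Astrocyte markers were below 0 for 10 of 11 (median -0.34, sums of 10974 to 16702 and 9804 to 13303). Vascular markers were below 0 for 6 of 8 (median -0.28, sums of 591 to 815 and 452 to 631). Interneuron markers were below 0 for 8 of 9 (median -0.40, sums of 2373 to 2999 and 2519 to 2650). The exception, Gad1, was the brightest of these 9 and makes up most of the sums. It read 1795, 1618 and 1748 against 1912, 1882 and 1819 (0.11, SE 0.15), with the groups of arrays apart. Groups were apart in the other direction for Sst (-1.47, SE 0.26), Sox10 (-1.19, SE 0.40) and Cldn5 (-1.15, SE 0.34). Their unadjusted p by limma was 0.00285, 0.0326 and 0.0222, and the adjusted p 0.999 each. All 3 were dim, with Sst at 7.33 to 62, Sox10 at 21.8 to 91.2 and Cldn5 at 42.5 to 140. Bok, a pyramidal cell marker, was apart and higher (0.18, SE 0.15). Granule cell markers were below 0 for 10 of 13 (median -0.086; 29587 to 33297 and 29366 to 30484) and pyramidal cell markers for 4 of 7 (median -0.052; 11016 to 14324 and 10767 to 13514). Defining markers under the filter included Mog and Olig2 of oligodendrocytes, Aldh1l1 of astrocytes, Aif1, C1qa, Itgam and P2ry12 of microglia and Flt1, Pecam1 and Tek of vessels, while Mbp (3010 to 7661) and Csf1r (1567 to 2365) were bright on every array. For oligodendrocyte, astrocyte and interneuron markers the differences rest largely on control mouse 1. The mean log2 level relative to the 6 arrays was 0.82 there for oligodendrocyte markers, against 0.064 and -0.24 on the other control arrays. It was 0.43 there for astrocyte markers, against 0.029 and -0.1, and 0.60 for interneuron markers, against 0.21 and -0.26. Control mouse 1 stood out less for microglia markers (0.33, against 0.21 and -0.061) and vascular markers (0.40, against 0.29 and -0.24). For granule cell markers it was the lowest control array (-0.052, against 0.12 and 0.068). Within tagged and untagged arrays the group medians were -1.12 and 0.13 for oligodendrocyte markers (0 and 7 of 9 above 0), -0.57 and 0.054 for astrocyte markers (1 and 7 of 11), -0.99 and 0.27 for interneuron markers (1 and 8 of 9), -0.46 and -0.22 for microglia markers (0 and 2 of 8) and -0.63 and -0.054 for vascular markers (1 and 3 of 8). For the first 3 lists the sign turned between the strata, the other way round from the members. None of these genes passed the adjusted threshold, and their part in the members' differences was not tested.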

How the data were processed

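The authors deposited linear probe set intensities for 6 arrays, scaled to a common trimmed mean; the summarising program and its background correction are not stated in the labels or file. The 64 control probe sets were removed, leaving 45037, of which 34945 have 1 symbol in the platform annotation, 932 several and 9160 none. Entrez identifiers matched 34741 to RefSeq, changing 0 symbols. Values under the pooled 25th percentile (intensity 10.1) were set to it and log2 was taken. Probe sets with a mean log2 above the median (4.92) were kept, the brightest per gene, which gave 14678 items (11138 named), called genes. Arrays of a mouse were averaged and groups compared by limma 3.58.1, functions lmFit and eBayes (R 4.3.3; 2 residual and 2.7 prior degrees of freedom), with Benjamini-Hochberg adjustment over all genes at 0.05. The fit was tested on simulated data. Same-numbered mice did not deviate together (r = 0.033 across genes).

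The members and lists were chosen with earlier results of these data known. Full statistics are given for complex II, the subunit c genes, the isoforms of complex IV and, per complex, up to 4 members of smallest p and up to 2 with groups of arrays apart. Ndufaf6, Ndufb4, the extremes of roles and the members named for array differences were added after their values were seen. Alternatives changed the normalization, floor, filter, probe set rule, unit of replication, tag, mouse number, variance model, and left out each mouse or array.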

Additional observations from a re-analysis of the deposited data

Results flagged for a closer look

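The mean level of complex V differed between groups in opposite directions in the 2 strata of the re-LCM tag: 0.15 log2 (transgenic minus control) among tagged arrays and -0.11 among untagged arrays. Both tagged transgenic arrays were above the tagged control array, and the untagged transgenic array was below both untagged control arrays. The complex V medians were 0.15 and -0.031, with 14 and 6 of 17 members above 0. The turn of sign was not particular to complex V: the medians of all members (0.11 and -0.11) and of each other complex turned as well. The difference between strata was not tested.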

How the results depend on the processing

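The number of genes past the threshold was 0 under all alternatives but a variance trend with robust variance, which called 1 gene, not a member, and no member passed under any setting run. The members' median (0.044) kept its sign when the floor, filter, normalization, probe set rule or unit of replication was altered. It was 0.011 with the tag as a term, 0.11 within tagged and -0.11 within untagged arrays, and between -0.052 and 0.14 with 1 mouse or array left out. With the mouse number as a replicate block it was 0.044, and 0 genes passed. Complex I gave 0.14 within tagged and -0.16 within untagged arrays (left out: -0.065 to 0.15). Complex III gave -0.073 within untagged arrays (left out: -0.071 to 0.10). Complex IV gave -0.034 with the tag as a term, 0.17 within tagged and -0.24 within untagged arrays (left out: -0.069 to 0.17). The 4 mice differed least for complex V, whose median was 0.042 with quantile normalization, 0.081 with the mean of probe sets, 0.039 with 6 arrays as separate samples, 0.02 with the mouse as a random block, 0.014 with the tag as a term, 0.15 within tagged and -0.031 within untagged arrays (left out: -0.037 to 0.11). The complex II median (0.071) gave 0.022 with the tag as a term, 0.035 within tagged and -0.025 within untagged arrays (left out: -0.05 to 0.20); these moves, a change of sign included, lay within its wide SD between mice of 0.14. The array difference of the members' mean level was 0.18 (control) and 0.24 (transgenic) with quantile normalization, and 0.29 (transgenic) with the mean of probe sets. Of the 28 named members tested, 23 had another sign under some alternative. The causes were not tested. Adding Cox7c (median of all members 0.043) and leaving out assembly factors (0.044) were chosen after seeing the data.

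With 2 mice a group the precision rests on few arrays. Dim members such as Ndufb1 and Ndufb4 lie near the filter (intensity 30.3), and the background correction behind their values is unknown.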
